A study of Mus musculus with 12 samples.

Results

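The genes of the proteasome were followed in 2 mouse natural killer (NK) cell lines, KY-2 and KY-1, that carried a Myb vector or a GFP vector. Members were the genes whose symbol starts with Psma, Psmb, Psmc, Psmd or Psme and then a digit, read from probe sets with 1 symbol, with Psmb8, Psmb9 and Psmc3ip left out. They numbered 42 of the 19938 genes measured. The rule used names and no measured difference, but it was set with earlier results of these data known. By role they were 8 genes of the 20S alpha ring, 9 of the 20S beta ring, 6 ATPases and 14 other genes named for the 19S cap, and 5 genes of the activator group. Some are members only by their symbol. Psmd5, Psmd9 and Psmd10 encode chaperones that assemble the base of the cap, and Psme3ip1 a protein that binds the activator Psme3, and none of these is a subunit of the finished particle.

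The proteasome is the barrel-shaped protease that breaks down proteins tagged with ubiquitin. The alpha rings gate the 20S core and the beta rings inside hold the catalytic sites, while the 19S cap recognises, unfolds and feeds in the substrate. Activators can dock in place of the cap, and in immune cells exchanged catalytic subunits and the PA28 activator shape the peptides that are presented on MHC class I.

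Both lines have the genotype label p53KO, so the loss of p53 was shared by all groups, and both were cultured with human IL-15, the cytokine that keeps NK cells alive, at 200 U/mL. Cells were transduced with GFP joined by a P2A peptide to FLAG-tagged Myb, or with GFP alone, and the GFP-positive cells were sorted. The Myb vector was measured on 3 arrays in KY-2 and on 4 in KY-1, and the GFP vector on 2 arrays in KY-2 and on 3 in KY-1. The labels do not say whether replicates were cultured apart, so the spread behind each p-value may be technical, and a difference between KY-2 and KY-1 is a difference between these 2 lines.

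Levels are log2 expression values, on which a difference of 1 is a ratio of 2. Precision is limited by how few arrays there were. In each of 2 groups, a pair of arrays was nearly identical and was counted as 1 replicate, which left 3 replicates per Myb group and 2 per GFP group. Errors on levels are SDs over these replicates. Myb itself was at 9.80, 9.67 and 9.75 on the KY-2 Myb arrays, against 5 and 5.1 on the KY-2 GFP arrays. In KY-1 it was at 9.59, 9.57, 9.55 and 9.54 on the Myb arrays, against 7.96, 7.92 and 8.04 on the GFP arrays. Myb was thus higher on every Myb array than on any GFP array of its line. All 10 NK cell markers listed were measured, and 7 to 9 of them had a group mean above 8. Of 6 T cell markers 5 were measured. Cd3g and Cd8a passed 8 in KY-2, and none of the 5 did so in KY-1.

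In the level itself, 40 members had a mean of at least 6, above the array medians of 5.31 to 5.42. The exceptions were Psma8, the testis form of an alpha subunit, with group means of 3.82 to 3.98, and Psmb11, the beta subunit of thymus epithelium, with group means of 4.20 to 4.47. Both of these tissue-restricted subunits lay below the array medians in all groups, and the table has no detection call that would tell a low level from background. The members varied little between replicates: their median residual SD was 0.0549 on the log2 scale, with a range of 0.029 to 0.141. The same median was 0.12 over all genes and 0.0593 over the 964 genes with a mean above 10, a set chosen after the data were seen as a match for the members' median level of 10.65.

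The first question was whether added Myb moved the proteasome genes. No member passed the test for the Myb vector in either line in the main fit. In KY-2, 0 of 42 members passed an adjusted p of 0.05 in limma, where 2.83% of all genes did, and in KY-1, 0 of 42 passed, where 1.22% of all genes did. At an unadjusted p under 0.05 there was 1 member in KY-2 and there were 3 in KY-1, which is 2.38% and 7.14% of the members, against 13.2% and 11% of all genes. With a prior variance that follows the level, limma called 1 member in each line, Psmd10 as lower in KY-2 and Psma5 as higher in KY-1. As these are bulk RNA measurements, a change in how many cells express a gene and a change in RNA per cell cannot be told apart.

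The arrays bound how far the members moved. The 95% interval of the Myb effect lay within 1.5-fold in either direction for 42 of 42 members in KY-2 and for 42 of 42 in KY-1. Over all genes this held for 91.5% in KY-2 and 92.8% in KY-1, and over genes with a mean above 10 for 97.3% and 98.5%. Within the narrower bound of 1.3-fold lay 41 members in KY-2, all but Psmd10, and 40 in KY-1, all but Psma5 and Psmb11. Both bounds were chosen after the data were seen. These intervals are not adjusted for the number of genes.

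**Figure D1:**
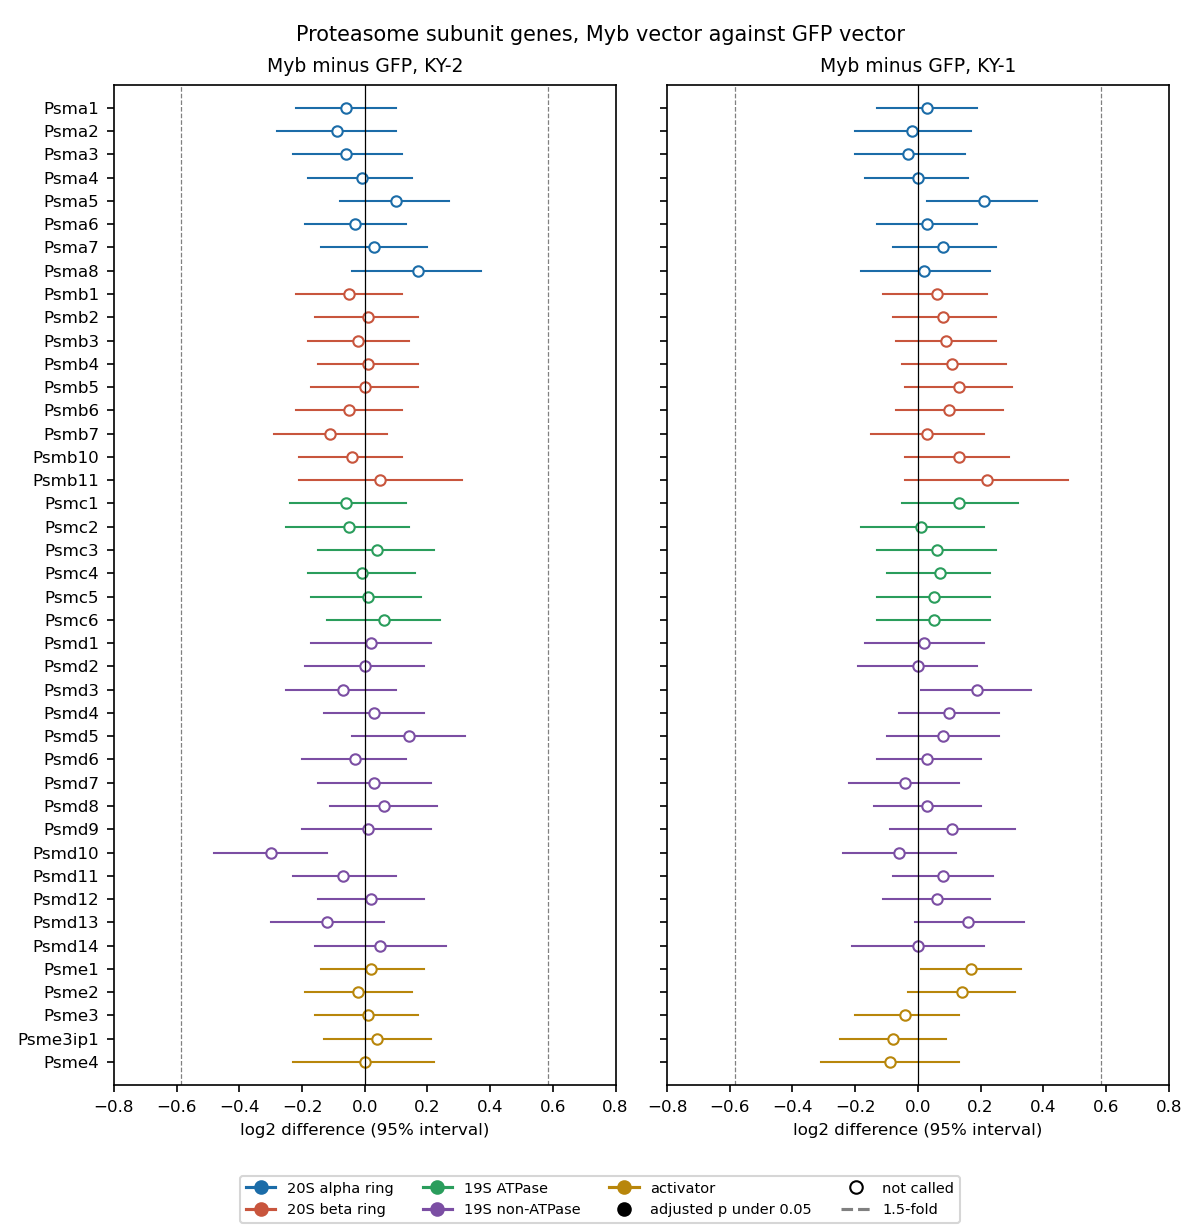
Log2 difference of Myb minus GFP for each of the 42 members (points) with its unadjusted 95% interval (lines), in KY-2 on the left and KY-1 on the right, coloured by role, with dashed lines at 1.5-fold. All points are open, since 0 members were called, and all intervals stay within the dashed lines; the point farthest from 0 is Psmd10 in KY-2, at -0.30.

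Among the catalytic subunits, Psmb5, which carries the chymotrypsin-like activity, had 12.14, 12.14 and 12.10 on the KY-2 Myb arrays, against 12.14 and 12.11 on the KY-2 GFP arrays. In KY-1 it had 12.14, 12.28, 12.12 and 12.15 with Myb, against 12.07, 12.08 and 12.04 with GFP. The Myb and GFP values overlapped in KY-2 and not in KY-1, where the difference was 0.13 ± 0.08 (SE, adjusted p = 0.616, limma).
Psmb6, the caspase-like subunit, differed by -0.05 ± 0.08 in KY-2 and by 0.10 ± 0.08 in KY-1 (SE, limma adjusted p = 0.875 and 0.705). Psmb7, the trypsin-like subunit, differed by -0.11 ± 0.08 and 0.03 ± 0.08 (SE, adjusted p = 0.656 and 0.939). Psmb10, the subunit that replaces Psmb7 in the immunoproteasome, differed by -0.04 ± 0.07 in KY-2 and by 0.13 ± 0.07 in KY-1 (SE, adjusted p = 0.887 and 0.594). None of these catalytic genes passed the test in either line.
The other immunoproteasome subunits, Psmb8 and Psmb9, which are not members, were also not called: Psmb8 differed by 0.15 in KY-2 and 0.23 in KY-1, and Psmb9 by 0.18 and 0.19.

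Psmd10, also called gankyrin, is the base chaperone that also binds the retinoblastoma protein. It had 8.91, 9.04 and 8.90 on the KY-2 Myb arrays, against 9.30 and 9.20 on the KY-2 GFP arrays. The Myb arrays were all lower and the groups did not overlap, but the difference of -0.30 ± 0.08 (SE) missed the threshold (limma, adjusted p = 0.099). Its call rested on the settings: the adjusted p was 0.0179 with the trended variance, 0.0219 after genes with a mean below 6 were left out and 0.0411 with all 12 arrays counted apart. In KY-1 Psmd10 had 8.44, 8.38, 8.37 and 8.34 with Myb, against 8.51, 8.48 and 8.40 with GFP, a difference of -0.06 ± 0.08 (adjusted p = 0.877). The Myb effects of the lines differed by -0.24 ± 0.12, which did not pass (adjusted p = 0.518).
The other members with the highest values were Psma8, Psmd5 and Psma5 in KY-2, at 0.17, 0.14 and 0.10, and Psmb11, Psma5 and Psmd3 in KY-1, at 0.22, 0.21 and 0.19. Next to Psmd10 the lowest were Psmd13 and Psmb7 in KY-2, at -0.12 and -0.11. In KY-1 the lowest were Psme4, Psme3ip1 and Psmd10, at -0.09, -0.08 and -0.06. No value in either list was called.

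The signs of these small values differed between the lines. In KY-2, 21 members had a positive and 21 a negative difference, with a median of -0.00126. All genes had a median of 0.0108 and 53% positive values, and genes with a mean above 10 had -0.013 and 43.9%. In KY-1, 33 members had a positive and 9 a negative difference, with a median of 0.0572, against -0.00134 and 49.6% over all genes and 50.6% over genes with a mean above 10. Over the alternative settings the positive members numbered 11 to 26 in KY-2 and 27 to 36 in KY-1.
In the beta ring 4 of 9 genes were positive in KY-2, with a range of -0.11 to 0.05, and 9 of 9 were positive in KY-1, with a range of 0.03 to 0.22. The 19S ATPases, which unfold the substrate, were positive for 3 of 6 genes in KY-2 and for 6 of 6 in KY-1. The alpha ring was positive for 3 of 8 genes in KY-2 and for 5 of 8 in KY-1. The non-ATPase genes of the cap, chaperones included, were positive for 8 of 14 in KY-2 and for 11 of 14 in KY-1.
The Myb and GFP replicates did not overlap for 8 of 42 members in KY-2, with Myb above in 2 and below in 6, and for 17 of 42 in KY-1, with Myb above in 16 and below in 1. These are 19% and 40.5% of the members, against 31% and 26.9% of all genes and 43.8% and 35.5% of the genes with a mean above 10.
Members of a complex are not independent of each other, so these counts describe these arrays.

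The difference between the lines was also tested itself. For the Myb effect in KY-2 minus that in KY-1, 0 of 42 members were called by limma, where 0.843% of all genes were. At an unadjusted p under 0.05 there were 2 members, Psmd13 and Psmd3, which is 4.76% of the members, against 10.3% of all genes. Psmd13 differed by -0.28 (adjusted p = 0.414) and Psmd3 by -0.26 (adjusted p = 0.454), both subunits of the 19S lid. The median over members was -0.071, against 0.0103 over all genes and -0.017 over genes with a mean above 10. With 10 positive and 32 negative values, 23.8% of members were positive, against 52.5% of all genes and 43.5% of genes above 10. All 9 beta ring genes were negative, between -0.17 and -0.07. No beta ring gene was positive in the alternatives either, where the filter on a mean of at least 6 left 8 of them, without Psmb11. The alternatives use the same arrays and are no separate support. The intervals of this contrast are wide, with 29 of 42 members (69%) inside 1.3-fold and 42 of 42 inside 1.5-fold. Of genes with a mean above 10, 63.8% and 95.3% lay inside these bounds, and of all genes 23.8% and 71.1%.
With both lines averaged, 0 of 42 members were called for Myb minus GFP, where 3.1% of all genes were. The unadjusted p was under 0.05 for 2 members (4.76%), against 13.8% of all genes. The 2 were Psmd10, at -0.18 (adjusted p = 0.167), and Psma5, at 0.15 (adjusted p = 0.239). All 42 intervals of the average lay within 1.3-fold, as did those of 96.6% of genes with a mean above 10 and 87.2% of all genes. The averaged contrast and the difference rest on the same arrays as the contrasts of each line.

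The second question was how the lines themselves differ. Here members were called, with Psme4, Psmd10 and Psmd7 higher and Psme2 and Psme1 lower in KY-2 with either vector. With the Myb vector 16 of 42 members were called (38.1%), where 31.6% of all genes were. Of these, 6 were higher in KY-2, where 14.7% of all genes were, and 10 were lower, where 16.9% were. With the GFP vector 12 of 42 members were called (28.6%), where 28.9% of all genes were. Of these, 7 were higher in KY-2, where 13.6% of all genes were, and 5 were lower, where 15.2% were. Among genes with a mean above 10 the calls came to 47.7% with Myb and 43.2% with GFP. The members' share thus lay between these backgrounds with Myb and under both with GFP. The members' median was -0.0686 with Myb and 0.00133 with GFP, against -0.0136 and -0.0386 over all genes.
The replicates of the lines did not overlap for 71.4% of members with Myb and 76.2% with GFP, against 42.3% and 62.9% of all genes and 70.1% and 84.3% of genes with a mean above 10.
In 10 members the call was made with both vectors and in the same direction, which is 10 of the 16 called with Myb and 10 of the 12 called with GFP. The share of all genes called with both vectors was not computed, so this overlap cannot be read as particular to the members. The Myb and GFP contrasts share no arrays, but they share the residual variance of each gene.

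**Figure D2:**
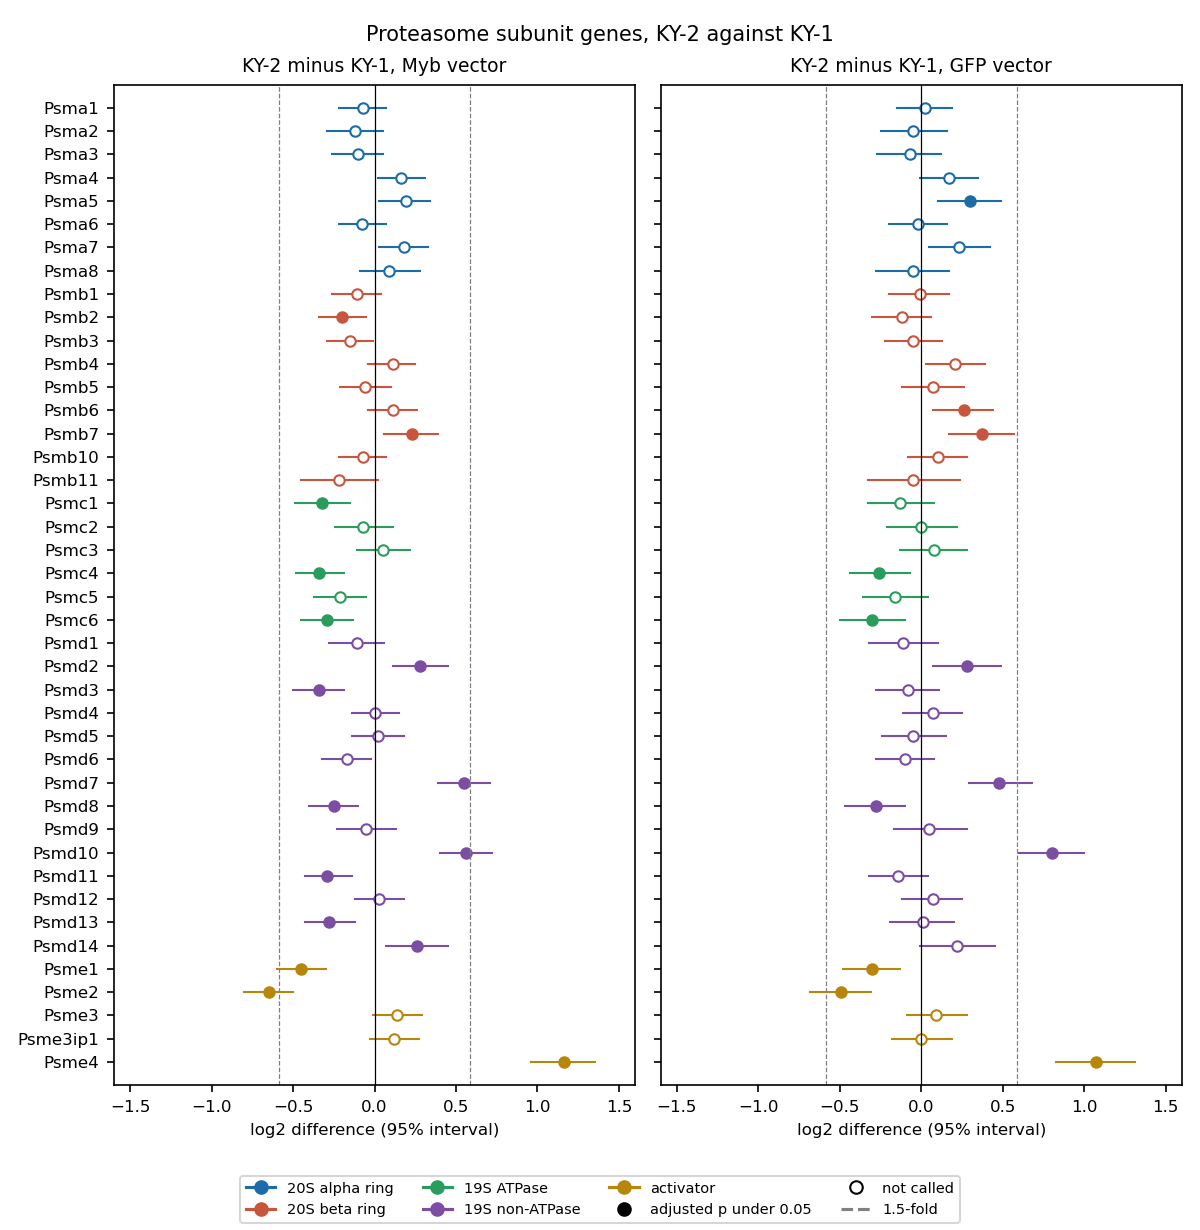
Log2 difference of KY-2 minus KY-1 for each of the 42 members with its unadjusted 95% interval, with the Myb vector on the left and the GFP vector on the right, coloured by role. Filled points mark the 16 and 12 members called, dashed lines mark 1.5-fold, and Psme4 lies farthest from 0 on both sides, at 1.16 and 1.07.

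Of the 5 activator genes 3 were called with either vector, Psme4 as higher and Psme1 and Psme2 as lower in KY-2. Of all genes 31.6% were called with Myb and 28.9% with GFP, and with so few activator genes their count is a description. Psme4 encodes PA200, a large single-chain activator of the nucleus linked to histone breakdown. With the Myb vector it had 9.09, 9.24 and 9.19 on the KY-2 arrays, against 7.95, 7.93, 8.18 and 8.17 on the KY-1 arrays. With the GFP vector it had 9.27 and 9.09 in KY-2, against 8.18, 8.11 and 8.07 in KY-1. Every KY-2 array was above every KY-1 array, with a difference of 1.16 ± 0.09 with Myb and 1.07 ± 0.11 with GFP (SE, limma adjusted p = 2e-06 and 2.26e-05), or 2.23-fold and 2.1-fold.
Psme1 and Psme2 encode the alpha and beta chains of PA28, the interferon-inducible activator that works with the immunoproteasome. Psme2 had 10.72, 10.80 and 10.85 in KY-2 with Myb, against 11.43, 11.42, 11.47 and 11.50 in KY-1 with Myb. With GFP it had 10.85 and 10.78 in KY-2, against 11.30, 11.34 and 11.30 in KY-1. Psme2 was thus lower on all KY-2 arrays, at -0.65 ± 0.07 with Myb and -0.49 ± 0.08 with GFP (SE, limma adjusted p = 2.17e-05 and 0.000919).
Psme1 had 11.27, 11.17 and 11.22 in KY-2 with Myb, against 11.69, 11.69, 11.63 and 11.65 in KY-1 with Myb. With GFP it had 11.22 and 11.17 in KY-2, against 11.46, 11.49 and 11.53 in KY-1. It was lower on all KY-2 arrays too, at -0.45 ± 0.07 with Myb and -0.30 ± 0.08 with GFP (SE, adjusted p = 0.000293 and 0.0152). The GFP call of Psme1 was lost without KY-2 GFP array 1, at -0.33 (adjusted p = 0.0515), without KY-2 GFP array 2, at -0.28 (0.0925), or without KY-1 GFP array 3, at -0.28 (0.0846). Each of these fits leaves 1 replicate in a group and the size of the difference stayed close to -0.30.
Psme3, which forms the related PA28 gamma ring of the nucleus, differed by 0.14 with Myb and 0.09 with GFP, and Psme3ip1 by 0.12 and 0.00, none of them called.

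**Figure D3:**
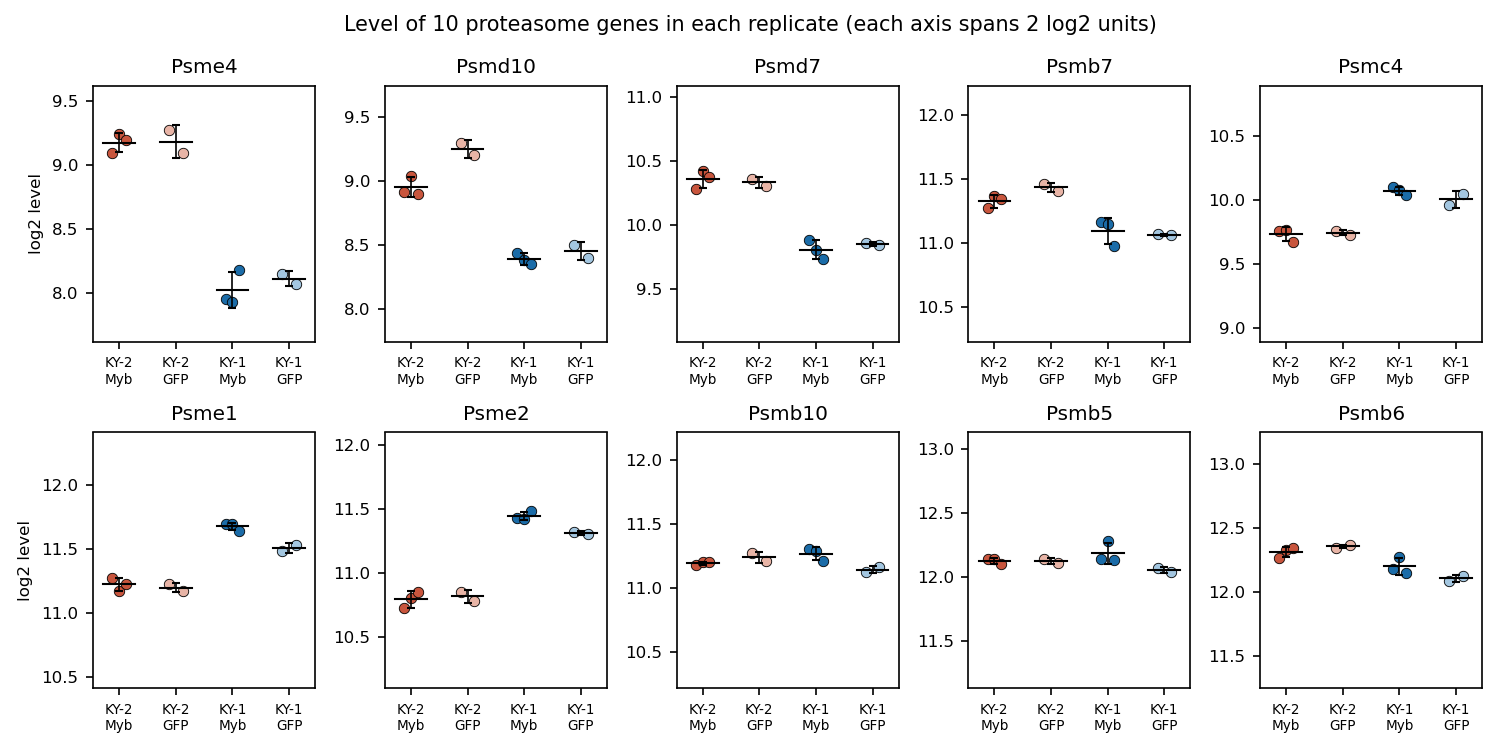
Log2 level of 10 members in each replicate (points, with the mean and SD as bars), in KY-2 Myb, KY-2 GFP, KY-1 Myb and KY-1 GFP cells, with every axis spanning 2 log2 units. Psme4, Psmd10 and Psmd7 sit higher in both KY-2 groups than in both KY-1 groups, Psme1 and Psme2 sit lower, and Psmb5 and Psmb10 lie close together in all groups.

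Among the Psmd genes, which are named for the 19S cap, the chaperone gene Psmd10 and the subunit gene Psmd7 were farthest above KY-1. The KY-2 arrays of Psmd10 given above, 8.90 to 9.30, all lay above the KY-1 arrays, 8.34 to 8.51. The difference was 0.56 ± 0.07 with Myb and 0.80 ± 0.09 with GFP (SE, limma adjusted p = 0.000127 and 4.75e-05).
Psmd7, also called Rpn8, is the lid partner of the deubiquitinase Psmd14. It had 10.28, 10.42 and 10.37 in KY-2 with Myb, against 9.88, 9.80, 9.74 and 9.72 in KY-1 with Myb. With GFP it had 10.36 and 10.30 in KY-2, against 9.86, 9.86 and 9.84 in KY-1. The groups did not overlap, and the differences were 0.55 ± 0.07 and 0.48 ± 0.09 (SE, adjusted p = 0.000121 and 0.00166). Psmd14 itself, which removes ubiquitin chains from the substrate, was higher in KY-2 with Myb, by 0.26 (adjusted p = 0.0365), and at 0.22 with GFP (adjusted p = 0.15).
Psmd2, the scaffold subunit Rpn1, was higher in KY-2 by 0.28 with Myb and by 0.28 with GFP (adjusted p = 0.0168 and 0.0463). Its other probe set gave 0.31 and 0.22. Psmd8, or Rpn12, was lower at -0.25 and -0.28 (adjusted p = 0.0153 and 0.0257).
The other lid subunits Psmd3, Psmd11 and Psmd13 were lower in KY-2 with Myb, at -0.34, -0.29 and -0.28 (adjusted p = 0.00311, 0.00633 and 0.0122). With GFP they were at -0.08, -0.14 and 0.01, and none was called. Whether the line difference depends on the vector is the same contrast as the difference of the Myb effects above, in which 0 members were called. Of the 14 non-ATPase genes, chaperones included, 8 were called with Myb, 4 higher and 4 lower, and 4 with GFP, 3 higher and 1 lower, beside 31.6% and 28.9% of all genes called. Psmd10 is among the higher ones with either vector.

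Of the 6 ATPases, 3 were called lower in KY-2 with Myb, where 16.9% of all genes were, and 2 with GFP, where 15.2% were, and 0 were called higher. With so few genes these counts are a description. Psmc4 was lower at -0.34 with Myb and -0.26 with GFP (adjusted p = 0.00267 and 0.038), and Psmc6 at -0.29 and -0.30 (adjusted p = 0.00995 and 0.0266). Psmc1 was lower with Myb at -0.32 (adjusted p = 0.00663) and at -0.13 with GFP. Its other probe set gave -0.13 and -0.15, so the 2 probe sets gave different sizes with Myb. The median over the 6 was -0.248 with Myb and -0.143 with GFP.
In the beta ring, Psmb7 was higher in KY-2 by 0.23 with Myb and 0.37 with GFP (adjusted p = 0.0366 and 0.00914). Psmb6 was higher with GFP by 0.26 (adjusted p = 0.039) and at 0.11 with Myb (adjusted p = 0.28), and the non-catalytic subunit Psmb2 was lower with Myb at -0.20 (adjusted p = 0.0425). Psmb5 was at -0.06 with Myb and 0.07 with GFP, and Psmb10 at -0.07 and 0.10, none of them called. The 95% interval of Psmb5 ran from -0.21 to 0.10 with Myb and from -0.12 to 0.26 with GFP. That of Psmb10 ran from -0.22 to 0.07 with Myb and from -0.08 to 0.28 with GFP.
In the alpha ring 0 of 8 genes were called with Myb, where 31.6% of all genes were, and 1 with GFP, where 28.9% were. The gene called with GFP was Psma5, which was higher in KY-2 by 0.30 (adjusted p = 0.0255) and at 0.19 with Myb (adjusted p = 0.071). Its other probe set gave 0.22 with either vector. A probe set can also read near-identical copies of a gene, and for Psma3, Psma5, Psmb3, Psmc1 and Psmd2, which have several probe sets, it is not settled which copy each one reads.

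The calls were repeated with each replicate left out. The share of all genes called in each such fit is not given here, so a changed count cannot be read as particular to the members. Each GFP group has 2 replicates, so leaving out 1 leaves a lone sample that is assumed to vary like the other groups. The count of 12 called with GFP became 4 without KY-2 GFP array 1, 5 without KY-2 GFP array 2, 6 without KY-1 GFP array 3 and 6 without the merged arrays 1 and 2 of KY-1 GFP. Psme4, Psmd10, Psmd7 and Psme2 kept their GFP call in 20 of 20 settings tried, and Psmb7 was lost only without KY-2 GFP array 1 (adjusted p = 0.063). Psma5, Psmb6, Psmc4, Psmc6, Psmd2 and Psmd8 were lost when some replicate was left out, and kept the GFP call in 6, 4, 6, 7, 2 and 6 of those 10 fits. Over all settings their sizes ran from 0.20 to 0.32 for Psma5, 0.13 to 0.28 for Psmb6 and 0.25 to 0.30 for Psmd2. For Psmc4 they ran from -0.31 to -0.21, for Psmc6 from -0.35 to -0.25 and for Psmd8 from -0.32 to -0.27.
With Myb, the calls of Psme4, Psme2, Psme1, Psmd10, Psmd7, Psmd3, Psmd11, Psmc1, Psmc4 and Psmc6 held in 20 of 20 settings. Psmb2, Psmb7 and Psmd14 held in 1, 3 and 3 of the 10 fits without a replicate, Psmd2 and Psmd8 in 8 each, and Psmd13 in 9, being lost without KY-2 Myb array 3 (adjusted p = 0.0552). No call with either vector changed sign in any setting.
The split of the calls moved with the scaling, and the split over all genes after each scaling is not given here. With the Myb vector it was 6 higher and 10 lower, against 5 and 13 after a second quantile normalization and 3 and 12 after median centring. With the GFP vector it was 7 and 5, against 5 and 6 and 4 and 5.

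The lines also differed in lineage markers, beside 31.6% of all genes called between them with Myb and 28.9% with GFP. Summed over the 5 T cell markers measured, the log2 levels came to 39.26 to 40 in KY-2 Myb replicates and 28.5 to 28.95 in KY-1 Myb replicates, and to 40.32 to 41.1 in KY-2 GFP and 26.37 to 26.89 in KY-1 GFP replicates. Cd3g averaged 12.19 ± 0.06 in KY-2 Myb, 7.14 ± 0.21 in KY-1 Myb, 12.30 ± 0.04 in KY-2 GFP and 4.62 ± 0.65 in KY-1 GFP cells (SD, n = 3, 3, 2 and 2). Of the 5 T cell markers 3 were called higher in KY-2 with either vector, Cd3d, Cd3g and Cd8a. Cd3e went the other way, called lower with GFP at -0.90 (limma adjusted p = 0.00346) and at -0.10 with Myb, not called. Cd4, at -0.11 with Myb and -0.02 with GFP, was not called. The NK receptor gene Ncr1 averaged 5.34 ± 0.05 in KY-2 Myb, 7.76 ± 0.18 in KY-1 Myb, 5.43 ± 0.50 in KY-2 GFP and 9.72 ± 0.08 in KY-1 GFP cells. The sums over 10 NK markers were 94.77 to 95.34, 96.28 to 97.34, 96.86 to 98.43 and 99.52 to 100.11 in the same order of groups. Of these 10 NK markers 6 were called lower in KY-2 and 2 higher with each vector, but the lower ones were not all the same. Klrb1c was called lower with GFP only, at -0.24, and was at 0.12 with Myb. Nkg7 was called lower with Myb only, at -0.21, and was at 0.02 with GFP. The higher ones were Eomes, an NK transcription factor, at 2.66 with Myb and 2.44 with GFP, and Prf1, the gene of perforin, at 1.26 and 2.26. Of 5 mast cell and basophil markers 3 were called lower in KY-2 with either vector: Kit at -2.43 with Myb and -2.32 with GFP, Cpa3 at -1.74 and -1.21, and Mcpt8 at -3.00 and -1.06. Their summed log2 levels were 22.04 to 22.71 in KY-2 Myb, 29.23 to 30.73 in KY-1 Myb, 21.89 to 22.66 in KY-2 GFP and 26.97 to 27.12 in KY-1 GFP replicates. All 4 B cell and 7 myeloid markers measured had group means under 8. The part of these marker differences in the proteasome differences was not tested.

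Genes that build, bind or regulate the proteasome were read from lists of its pathway. With the Myb vector against GFP, 0 members of any of these lists were called in either line, beside 2.83% of all genes in KY-2 and 1.22% in KY-1. Between the lines 31.6% of all genes were called with Myb and 28.9% with GFP. The largest line difference among members and listed genes was that of Psmg1, which is no subunit. This gene, whose protein forms with Psmg2 the chaperone that starts the alpha ring, had 9.97, 9.95 and 9.78 in KY-2 with Myb, against 8.62, 8.61, 8.49 and 8.51 in KY-1 with Myb. With GFP it had 9.80 and 9.85 in KY-2, against 8.47, 8.42 and 8.55 in KY-1. It was higher on all KY-2 arrays, by 1.32 ± 0.08 with Myb and 1.33 ± 0.10 with GFP (SE, limma adjusted p = 2.26e-07 and 1.5e-06).
Its partner Psmg2 was lower with Myb, at -0.32 (adjusted p = 0.00374), and at -0.22 with GFP (adjusted p = 0.0767). Pomp, which matures the beta ring, was lower with Myb at -0.24 (adjusted p = 0.0154) and at -0.19 with GFP (adjusted p = 0.112). Psmg1 was the only one of 5 measured assembly chaperones called as higher, and with Myb the 2 others called were lower.
Among 7 bound factors measured, Ecpas, the Ecm29 protein that clamps core and cap, was higher in KY-2 by 0.48 with Myb and 0.63 with GFP (adjusted p = 0.000292 and 0.000207). The cap deubiquitinase Uchl5 was lower at -0.30 and -0.36 (adjusted p = 0.0228 and 0.027). Psmf1, an inhibitor of the core, was lower with Myb at -0.24 (adjusted p = 0.0497).
Of 5 genes for transcription factors of the subunits and their processing, Nfe2l2 was higher in KY-2 by 0.45 with Myb and 0.50 with GFP (adjusted p = 0.000358 and 0.000856). Vcp, the segregase that extracts substrates and also releases Nfe2l1 from the endoplasmic reticulum, was higher by 0.51 and 0.55 (adjusted p = 0.000134 and 0.000401). Akirin2, which carries proteasomes into the nucleus, was higher with GFP by 0.30 (adjusted p = 0.037) and at 0.21 with Myb (adjusted p = 0.0657). Nfe2l1, the factor that raises the subunit genes when the proteasome is inhibited, was at 0.00 with Myb and -0.01 with GFP and was not called.
The shuttle factors split, with Rad23b higher by 0.35 and 0.40 (adjusted p = 0.00611 and 0.0111) and Ubqln1 lower at -0.37 and -0.26 (adjusted p = 0.00174 and 0.0392) of 4 measured. Psmb8 was at 0.05 and 0.12 and Psmb9 at 0.16 and 0.17, neither called. Of 6 ubiquitin and E1 genes only Uba6 was measured, at -0.08 and -0.09, and it was not called.

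**Figure D4:**
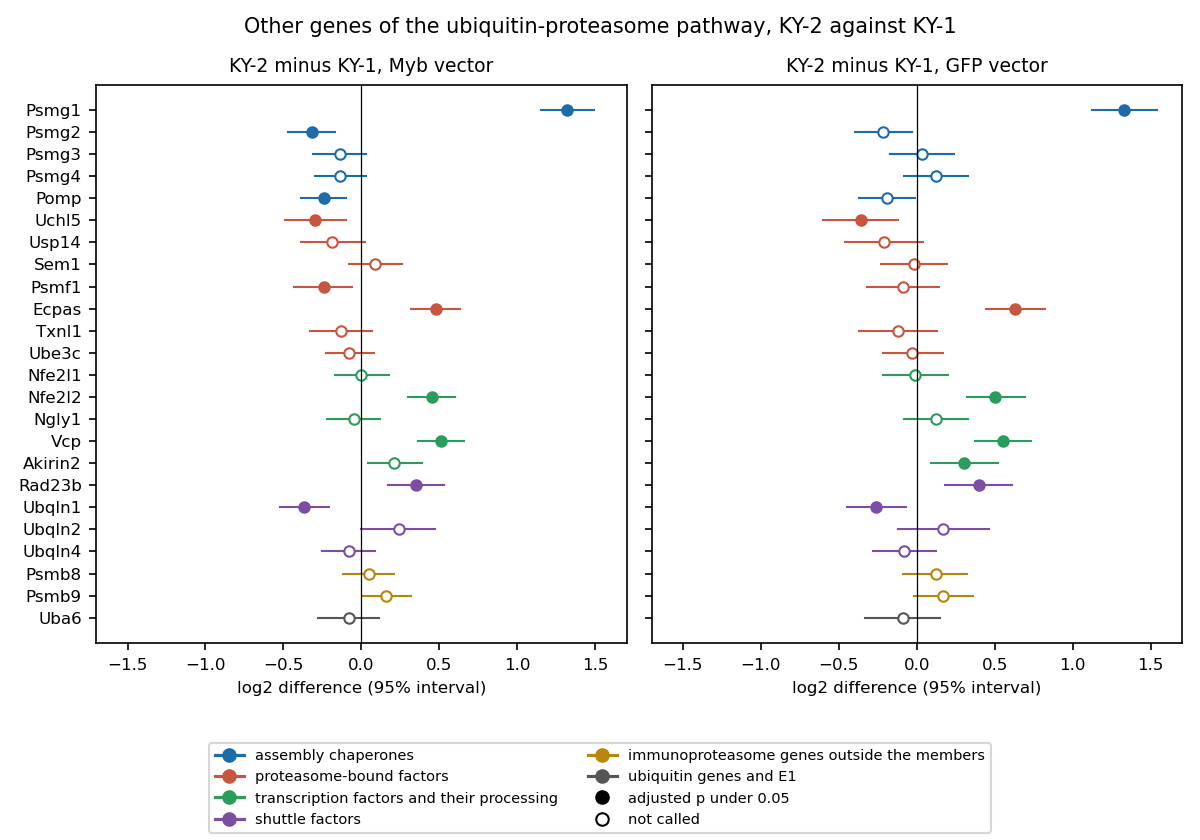
Log2 difference of KY-2 minus KY-1 for the measured genes of 6 pathway lists with unadjusted 95% intervals, with the Myb vector on the left and the GFP vector on the right, filled where called. Psmg1 stands apart at 1.32 and 1.33, followed on the higher side by Vcp at 0.51 and Ecpas at 0.63.

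Promoter sequence was available for 35 of the 42 members, as RefSeq windows of GRCm38.p6 from 250 bases before to 50 bases after the start. The 250 bases before the start are shown for the genes with the firmest line differences, Psme4, Psme1, Psme2 and Psmd10, a choice made after their values were seen. Psmd7 had no entry. Each is written from 5′ to 3′ on the gene's strand, and capitals mark matches, on either strand, to TGACNNNGC, the core letters of the antioxidant response element that Nfe2l1 and Nfe2l2 bind, or to CCAAT, the box bound by NF-Y. Psme4 lies at chr11:30771525-30771774 on the plus strand, Psme1 at chr14:55578244-55578493 on the plus strand, Psme2, in 1 of its 2 windows, at chr14:55591022-55591271 on the minus strand, and Psmd10 at chrX:140956712-140956961 on the minus strand.
Psme4: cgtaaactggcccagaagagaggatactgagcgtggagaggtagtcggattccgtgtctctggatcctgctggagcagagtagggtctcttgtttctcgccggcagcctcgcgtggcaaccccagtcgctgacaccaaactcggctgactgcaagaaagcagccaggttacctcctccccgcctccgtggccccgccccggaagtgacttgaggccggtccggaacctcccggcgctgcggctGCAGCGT
Psme1: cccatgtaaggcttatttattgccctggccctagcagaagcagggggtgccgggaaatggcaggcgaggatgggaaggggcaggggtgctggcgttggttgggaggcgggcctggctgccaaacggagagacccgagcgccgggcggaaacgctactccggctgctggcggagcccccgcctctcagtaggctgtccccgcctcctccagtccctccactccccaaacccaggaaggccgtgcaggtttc
Psme2: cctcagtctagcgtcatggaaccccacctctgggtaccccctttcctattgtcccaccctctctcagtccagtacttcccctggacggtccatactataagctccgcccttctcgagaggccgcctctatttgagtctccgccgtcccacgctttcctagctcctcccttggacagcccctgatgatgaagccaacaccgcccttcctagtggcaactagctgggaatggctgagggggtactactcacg
Psmd10: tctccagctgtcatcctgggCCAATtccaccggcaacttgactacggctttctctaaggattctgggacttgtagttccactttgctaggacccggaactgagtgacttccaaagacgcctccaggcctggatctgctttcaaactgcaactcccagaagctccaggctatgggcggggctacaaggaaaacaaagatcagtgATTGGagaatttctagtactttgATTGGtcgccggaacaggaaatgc
Psme4 held a TGACNNNGC match on the minus strand at the end of its stretch, of which 7 of 9 letters are shown and the rest lies past the start. Psmd10 held 3 CCAAT matches, and neither of the neighbouring genes Psme1 and Psme2 held a match to either motif in the stretch shown.
Over the whole windows, TGACNNNGC was found for 6 of 35 members (17.1%), namely Psmb5, Psmb6, Psmc6, Psmd9, Psmd12 and Psme4, and for 14% of all 27025 genes with windows. CCAAT was found for 14 of 35 (40.0%), and for 41.1% of all genes. AACNG, the core letters of the site that Myb binds, was found for 30 of 35 members (85.7%), and for 82.4% of all genes. These shares describe letters on both strands and not binding, and matches of different motifs may overlap.

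Seen by replicate, the median of the members stayed between -0.029 and 0.056. Such a median can hide opposite moves, as in the 6 members called higher and 10 called lower between the lines with Myb. The median over the 42 members of the deviation from each gene's own mean was -0.029, 0.014 and -0.013 in KY-2 Myb, 0.009 and -0.009 in KY-2 GFP, 0.056, 0.055 and 0.004 in KY-1 Myb, and -0.015 and -0.027 in KY-1 GFP replicates. The 3 KY-1 Myb replicates were above both KY-1 GFP replicates, and the replicates of KY-2 overlapped between vectors. Over all genes the same median ran from -0.024 to 0.041 over the 10 replicates. Over genes with a mean above 7 it ran from -0.057, in KY-2 Myb replicate 1, to 0.05, in KY-1 Myb replicate 1. Within the set, the range of the 4 group means was 0.07 for Psma1 and Psmc2, the steadiest members, and 1.16 for Psme4.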

How the data were processed

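Total RNA of KY-2 and KY-1 cells was measured on 12 single-colour Affymetrix arrays. The deposited values are log2 expression per probe set, made with Partek and RMA per the submitters' processing notes, with versions not given in the sources used here. RMA subtracts background, equalises the arrays and combines the probes of a set, which can shrink small differences. Values ran from 1.49 to 13.96.

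Of 35556 probe sets, 21789 had 1 gene symbol in the platform annotation, 1621 several and 12146 were not listed. The probe set with the highest mean over the 12 arrays stood for each gene, which gave 19938 genes, and 48 probe sets of 42 members. Arrays 1 and 2 of KY-1 GFP were averaged, as were arrays 3 and 4 of KY-1 Myb, since the robust SD of their log2 differences was 0.0433 to 0.0469, against 0.102 to 0.172 for the other pairs of a group, over 10624 probe sets with a mean above 7. Same-numbered samples did not deviate together, so replicate numbers were not taken as pairs.

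Group means were fitted in 1 model with limma 3.58.1 in R 4.3.3 (lmFit, contrasts.fit, eBayes; 6 residual and 4.89 prior degrees of freedom), with Benjamini-Hochberg adjustment over all genes and a threshold of 0.05. On simulated data shaped like the KY-2 contrast of Myb and GFP, over 19938 genes, the fit recovered 50% of changes of 0.5 and 98% of changes of 1 on the log2 scale. Promoter letters were searched in Python 3.11.15. Named were all called members, the 6 highest and 6 lowest where more than 12 were called, the 3 highest and 3 lowest where none was, the catalytic subunits, Psme1, Psme2 and Psma8, and up to 4 called genes per pathway list; further called members are named to complete the counts. The members, the lists and the averaging were chosen with earlier results of these data known. Alternatives were other normalizations, filters, variance priors and weights, all arrays counted apart, a replicate block and leaving out each replicate.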

Additional observations from a re-analysis of the deposited data

How the results depend on the processing

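The count of members called for Myb minus GFP was 0 in KY-2, in KY-1 and on average. With the trended variance it was 1, 1 and 2. With all 12 arrays counted apart it was 1 in KY-2 and 1 on average, and with genes of a mean under 6 left out it was again 1 and 1. For the difference of the Myb effects it was 0 in every setting run. Between the lines with the GFP vector the count of 12 ranged from 4 to 12 as each replicate was left out, and was 6 when the GFP groups alone were fitted. With the Myb vector the count of 16 became 25 with the trended variance and ranged from 11 to 16 without single replicates. With a replicate block on all 12 arrays the counts were 0 for each of the Myb contrasts and their difference, 15 between lines with Myb and 11 with GFP. The replicate numbers do not mark pairs in the labels, and same-numbered samples correlated between -0.465 and 0.115. Over the named genes, 1489 comparisons with an alternative kept their side of the threshold, 69 lost the call, 9 gained it and 0 reversed. Since the share of all genes called in each setting is not given here, these shifts cannot be read as particular to the members. The causes of the shifts were not tested. Few replicates and a table without detection calls limit what can be said of small differences and of Psma8 and Psmb11.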
